A study of Bos taurus with 12 samples.

Results

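The transient response to grain was measured in rumen papillae as the difference, within each cow, between the sample of the first grain week and the mean of the same cow's samples from the forage week and from week 3 of grain. Genes that peak or dip in the first grain week and return stand out in this difference, whereas genes that drift steadily from forage to week 3 do not. It was formed in 4 Holstein dairy cows from 4 week 1 arrays against 8 arrays of the other weeks, and so drew on all 12 of the 12 arrays of the series. Each cow was sampled on a high forage diet, which served as the control (week 0), and then in week 1 and week 3 of a grain challenge. The tissue was the papillae of the ventral sac, and total RNA was hybridised to Affymetrix bovine arrays. The age, parity and stage of lactation of the cows and the make-up of the diets are not given in the sources used here. Diet and calendar week coincided, and the series holds no cows kept on forage throughout, so a passing effect of grain and any other event of that week cannot be told apart. The deposited log2 values are centred on each probe set's median over the 12 arrays. They carry differences between arrays and no absolute level, so the labelled tissue could not be checked by the presence of its markers.

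Papillae are leaf-like folds of the rumen wall, covered by a stratified squamous epithelium that takes up the short chain fatty acids made by microbial fermentation. Grain ferments faster than forage, so a change to grain raises the supply of these acids and lowers rumen pH, and over the following weeks papillae are known to grow and their epithelium to adapt. Growing cells make ribosomes in the nucleolus and fold new proteins with chaperones, and sterols for new membranes come from acetyl-CoA through the mevalonate pathway, which is switched on by SREBP transcription factors when sterols are short. The epithelium also defends the rumen wall with secreted antimicrobial proteins, complement and the display of peptides on major histocompatibility complex (MHC) proteins. In bulk tissue, fewer cells of a type and less RNA per cell cannot be told apart.

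In the first grain week CIAPIN1, a factor of cytosolic iron-sulfur protein assembly, and NASP, a histone chaperone, rose and returned, and GPX3, a secreted glutathione peroxidase, fell and came back. Genes of ribosome assembly and cholesterol synthesis had mostly higher values in week 1, and genes of antigen presentation and complement mostly lower values. None of the genes on these lists passed the test singly. The antigen presentation and complement lists were written after values of their genes had been seen, and the other lists were chosen with earlier results of these data known. The complement median was above 0 in cow 4 (0.07). In a limma model with a term for the cow, 4 of 24016 probe sets (0.0167%) were called, that is, had a Benjamini-Hochberg adjusted p under 0.05. Of these, 2 were higher (0.00833%) and 2 were lower (0.00833%). At an unadjusted p under 0.05 there were 989 higher probe sets (4.12%) and 940 lower ones (3.91%), or 1929 in all (8.03%). Over the 9155 genes named by a probe set, 3 were called (0.0328%), 440 were higher (4.81%) and 581 lower (6.35%) at an unadjusted p under 0.05. The median difference of all named genes was 0.02 (log2). By sign alone 5577 of the 9155 named genes were higher and 3578 lower. These shares and counts are the background for every count below.

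A second view of the same pattern asks that the week 1 array be the highest, or the lowest, of the cow's 3 arrays in all 4 cows. Of the named genes 177 (1.93%) had such a peak and 216 (2.36%) such a dip, and of all probe sets 1.56% and 1.47%. Peak and dip are used below in this sense only. All 4 week 1 arrays lay above all 8 others for 34 genes (0.371%) and below them for 30 (0.328%).

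The week 1 array of cow 1 stood apart from the others. Its values spread widely, with an interquartile range of 0.208 over all probe sets against 0.0210 to 0.107 on the other 11 arrays, and its median was -0.05. The next widest arrays were also of week 1, in cow 4 (0.107) and cow 2 (0.0978), with the highest medians (0.03 and 0.05), while week 1 of cow 3 (0.0324) lay within the 0.0210 to 0.0653 of the week 0 and week 3 arrays. A wider spread thus went with the first grain week in 3 of 4 cows. Over all probe sets the median within-cow difference was -0.05 in cow 1, 0.07 in cow 2, -0.01 in cow 3 and 0.06 in cow 4. The 18 hybridization control probe sets, which report RNA added during the assay and not cow RNA, were high on week 0 and week 1 of cow 1 and on week 0 of cow 2 (0.48 to 0.72 against -0.32 to 0.05 on the rest). The mean difference between 3′ and 5′ probe sets of 6 bovine control transcripts, a sign of RNA integrity, differed in week 1 by -0.11 to 0.03 in the 4 cows. The part of these array differences in the results was not tested beyond leaving arrays out, and results with and without the week 1 array of cow 1 are given further on.

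CIAPIN1 read -0.02, 0.43, 0.43 and 0.20 in week 1 of cows 1 to 4, and its 8 other arrays ran from -0.43 through a median of -0.10 to 0.03. The weeks overlapped between cows because cow 1 was low throughout, but within every cow week 1 was the highest array, and the 4 within-cow differences were nearly equal (0.36, 0.43, 0.40 and 0.39). The mean difference was 0.39 ± 0.03 (moderated SE of the limma fit), a 1.31-fold rise (limma adjusted p = 0.0211). Here and below, ± gives this SE, which rests on the gene's spread estimated from all arrays in the fit. It is not the SE of the 4 within-cow differences, and was below it for some genes, among them LPO, CXCL8, LBP and HMGCS1. The SD of the 4 differences was 0.03 for CIAPIN1 but 1.87 for LPO, 2.25 for CXCL8, 1.36 for LBP and 1.24 for HMGCS1. At week 3 CIAPIN1 was back near its forage value, with a difference from week 0 of 0.03 (95% interval -0.05 to 0.12).

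NASP, which escorts histones H1, H3 and H4 and is made in step with DNA replication, read 0.46, 0.16, 0.46 and 0.44 in week 1, and its other arrays ran from -0.41 through -0.08 to 0.05. All 4 week 1 values lay above all 8 others. The difference was 0.51 ± 0.05 (1.43-fold, limma adjusted p = 0.0277), between 0.43 and 0.58 in the 4 cows, and both probe sets of the gene were higher. From week 0 to week 3 it differed by -0.07 (95% interval -0.19 to 0.05).

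GPX3 read -0.28, -1.04, -1.45 and -1.80 in week 1, and its other arrays ran from -0.34 through 0.45 to 1.06. Week 1 was the lowest array of every cow, and the weeks overlapped only where week 1 of cow 1 met week 0 of cow 4 (-0.34). The difference was -1.53 ± 0.13, a 2.88-fold fall (limma adjusted p = 0.0277), with -1.84 to -1.49 in cows 2 to 4 and a smaller fall in cow 1. Week 3 exceeded week 0 by 0.19 (95% interval -0.17 to 0.55). The other called probe set (difference -0.64 ± 0.04, adjusted p = 0.0188) is assigned to several genes and is not named here. None of the 4 calls survived when any whole cow was left out of the limma fit, which left 0 probe sets called each time and 1481 to 3677 at an unadjusted p under 0.05, or when values were quantile normalized between arrays (0 called, 1746 at an unadjusted p under 0.05). Without the cow as a block 0 were called too, with 1277 at an unadjusted p under 0.05. The differences themselves stayed of like size and kept their sign over 26 alternatives, at 0.38 to 0.43 for CIAPIN1, 0.38 to 0.55 for NASP and -1.76 to -1.30 for GPX3.

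**Figure D1:**
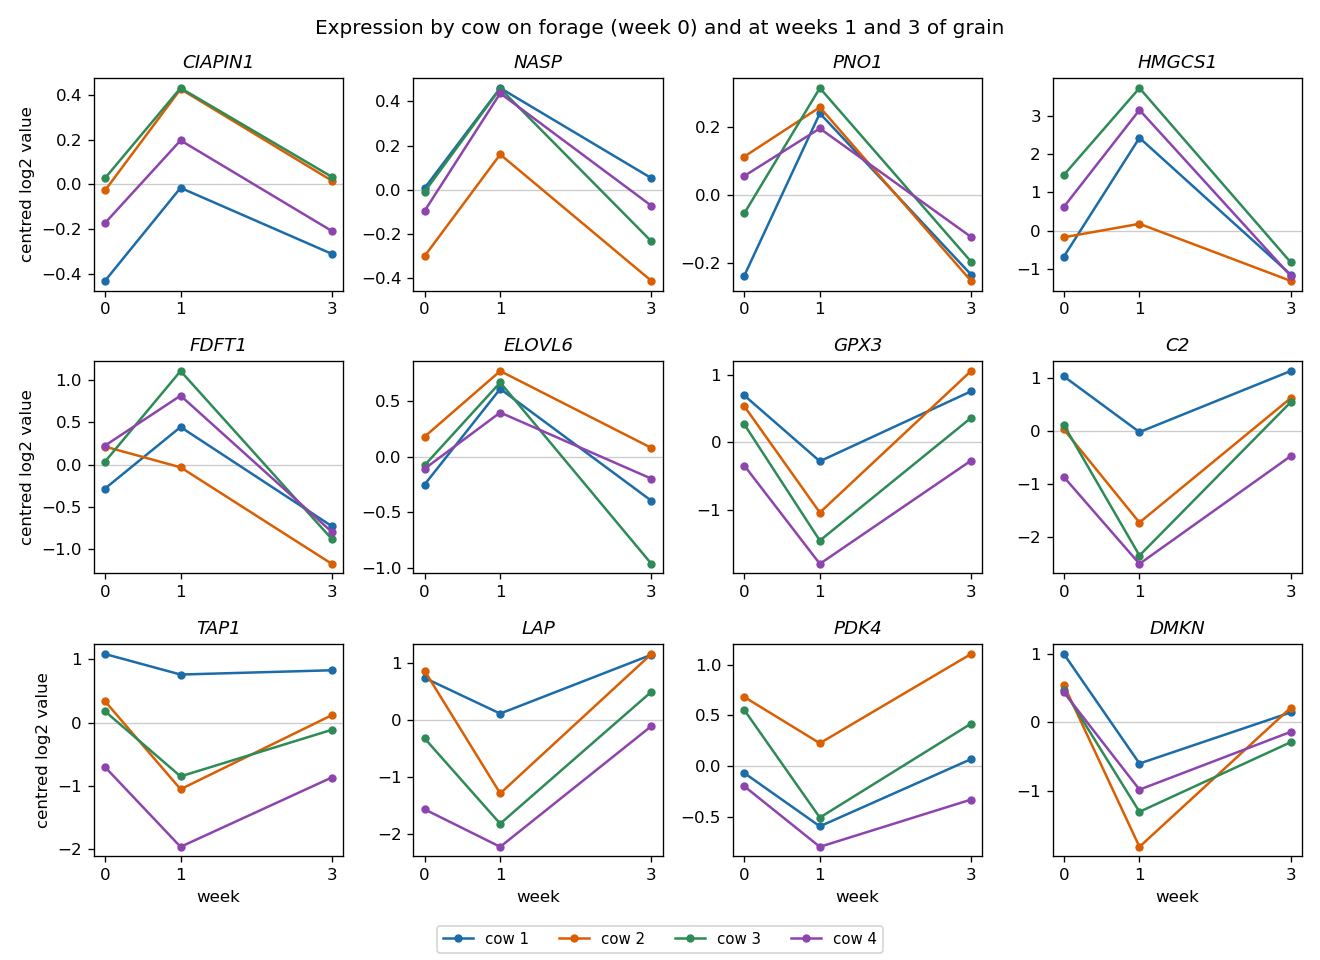
Centred log2 values (y axis) of 12 genes at weeks 0, 1 and 3 (x axis), 1 line and 1 point per array for each of 4 cows. CIAPIN1, NASP and PNO1 peak at week 1 in all 4 cows, GPX3, C2 and DMKN dip in all 4, and the week 1 difference of HMGCS1 is far smaller in cow 2 (0.93 against 3.35 to 3.45 in the others).

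With fewer than 5 called genes in either direction, the 12 genes of smallest p in each direction that moved the same way in all 4 cows are described by their values. Apart from the 3 called genes, their adjusted p lay between 0.0935 and 0.152, so none of the remaining 21 passed the test.

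Among the higher genes several belong to the nucleolus and the mitochondrion. RIOX2, a nucleolar hydroxylase of a ribosomal protein, read 0.31, 0.42, 0.36 and 0.20 in week 1 against at most 0.02 on the other arrays, a difference of 0.43 ± 0.05. PNO1, needed to mature the small ribosomal subunit, read 0.24, 0.26, 0.31 and 0.20 against at most 0.11 elsewhere, a difference of 0.37 ± 0.06. RRP36, an rRNA processing factor, differed by 0.22 ± 0.03, with 0.17 to 0.24 in the 4 cows. In RIOX2 and PNO1 the week 1 arrays did not overlap the others, and in RRP36 they did.

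MRPL15, a protein of the large mitochondrial ribosome, read 0.30, 0.29, 0.27 and 0.36 against -0.37 to 0.08, a difference of 0.48 ± 0.07. CHCHD4, which folds proteins imported into the mitochondrial intermembrane space, differed by 0.38 ± 0.06, and its week 1 arrays also lay above all others (0.13 to 0.47 against at most 0.09). PITPNA, a carrier of phosphatidylinositol between membranes, differed by 0.39 ± 0.06, and PDXP, a phosphatase of vitamin B6, by 0.33 ± 0.05. The zinc finger gene ZSCAN16 (0.27 ± 0.04), LOC785762, which has a locus number for a name (0.72 ± 0.12), and HMGCS1, described with the sterol genes, complete the set.

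The lower genes include complement proteases and epithelial genes. C2, the protease that completes the classical C3 convertase, read -0.02, -1.73, -2.35 and -2.50 in week 1 against -0.87 through 0.32 to 1.12 elsewhere. That is a difference of -1.91 ± 0.21, or 3.76-fold lower (limma adjusted p = 0.0935), with both of its probe sets lower. DMKN, dermokine, a secreted protein of the upper epidermal layers, read -0.60, -1.82, -1.31 and -0.98 against at least -0.29 elsewhere, a difference of -1.47 ± 0.17 (limma adjusted p = 0.101). All 4 week 1 arrays of DMKN lay below all 8 others. C1R, the protease of the first complement component that cleaves C1S, differed by -0.66 ± 0.08.

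PDK4, the kinase that shuts off pyruvate dehydrogenase and so spares glucose, read -0.59, 0.23, -0.51 and -0.80 against -0.33 through 0.24 to 1.11, a difference of -0.70 ± 0.10. The weeks overlapped because cow 2 was high throughout, yet week 1 was the lowest array in every cow. ELF5, an ETS transcription factor of glandular and stratified epithelia, differed by -0.66 ± 0.09, and the homeobox gene PBX2 by -0.52 ± 0.07. NCSTN, nicastrin of the γ-secretase complex, differed by -0.41 ± 0.06, and its week 1 arrays (-0.35 to -0.20) lay below all others, as did those of PBX2.

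FUT6, a fucosyltransferase (-0.41 ± 0.06), LGALS3BP, a secreted galectin ligand (-0.47 ± 0.07), ADPRS, a hydrolase of ADP-ribosyl serine (-0.30 ± 0.04), and ARHGAP10 (-0.55 ± 0.08) complete the lower set. Of their several probe sets, 1 of 2 for LGALS3BP and 1 of 3 for ADPRS had the opposite sign. ARHGAP10 was chiefly lower against week 0 (-0.91) and little lower against week 3 (-0.19), so it describes a lasting difference more than a dip.

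Genes that build ribosomes had mostly higher values. Of 55 measured ribosome biogenesis genes 47 were higher, 16 at an unadjusted p under 0.05 and none lower at that level, and 8 peaked in all 4 cows, while none was called. Their median difference was 0.16 against 0.02 for all named genes, with 0.30, 0.08, 0.07 and 0.16 in cows 1 to 4. The week 1 median was 0.10 above week 0 and 0.19 above week 3. From week 0 to week 3 it was -0.09, so the list did not simply return to the forage value. NOLC1, a nucleolar phosphoprotein that binds snoRNA particles, read 0.28, 0.28, 0.16 and 0.39 against -0.48 to 0.05, and its arrays did not overlap (0.42 ± 0.09). LTV1 (0.39 ± 0.11), a factor that ripens the small subunit, and GAR1 (0.32 ± 0.08), a protein of the RNAs that guide pseudouridylation, were higher in all 4 cows too. WDR43, with the largest difference of the list (0.55 ± 0.24), spread widely over the cows (0.10 to 0.85).

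Of 44 measured cytosolic ribosomal proteins 15 were higher and 29 lower, with a median of -0.01, and only RPL21 (0.30 ± 0.08) and RPL7 (0.46 ± 0.15) had an unadjusted p under 0.05. A second probe set of RPL21 had the opposite sign. Among 47 mitochondrial ribosomal proteins 36 were higher, 5 at that level including MRPL32 (0.25 ± 0.05), with a median of 0.08. The mitochondrial list rested largely on cow 3 (median 0.33), and its median was -0.01 without that cow. Its week 1 median was 0.04 above week 0 and 0.12 above week 3.

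Splicing and folding genes leaned the same way by small amounts. Of 42 spliceosome and RNA binding genes 32 were higher, 8 at an unadjusted p under 0.05, with a median of 0.08. In cows 1 to 4 this median was 0.14, -0.05, 0.07 and 0.09. The largest were RBM25 (0.55 ± 0.16), whose week 1 arrays of 0.32, 0.20, 0.66 and 0.10 lay above all others, and LUC7L3 (0.38 ± 0.10), both partners of the U1 particle. Both differed by 0.60 to 1.04 in cows 1 and 3 and by only 0.09 to 0.19 in cows 2 and 4. Of 20 heat shock and chaperone genes 16 were higher, 5 at that level, with a median of 0.11. The cow medians were 0.22, -0.01, 0.11 and 0.08, and without the week 1 array of cow 1 the median was 0.058. The week 1 median was 0.06 above week 0 and 0.15 above week 3, and from week 0 to week 3 it was -0.10. The list was led by HSPB8, a small heat shock protein (0.39 ± 0.08), and HSPA4, an exchange factor for HSP70 (0.32 ± 0.07). HSPB8 differed by 0.07 in cow 1 and by 0.40 to 0.59 in the other cows.

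Genes of the unfolded protein response, which the endoplasmic reticulum raises when folding falls behind, had mostly lower values. Of 18 measured genes 14 were lower, 5 at an unadjusted p under 0.05, with a median of -0.15, but 0 dipped in all 4 cows. The cows differed, with medians of -0.04, -0.40, -0.24 and 0.03 in cows 1 to 4, and without the week 1 array of cow 2 the median was -0.051. The members of smallest p were DNAJB9 (-0.28 ± 0.08) and SDF2L1 (-0.16 ± 0.05), both of the reticulum lumen. DNAJB9 in week 1 differed by -0.11 from week 0 and by -0.44 from week 3, and at week 3 stood 0.34 above week 0. HSPA5, the reticulum's main HSP70, differed by -0.25 ± 0.10 and had a second probe set of opposite sign.

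**Figure D2:**
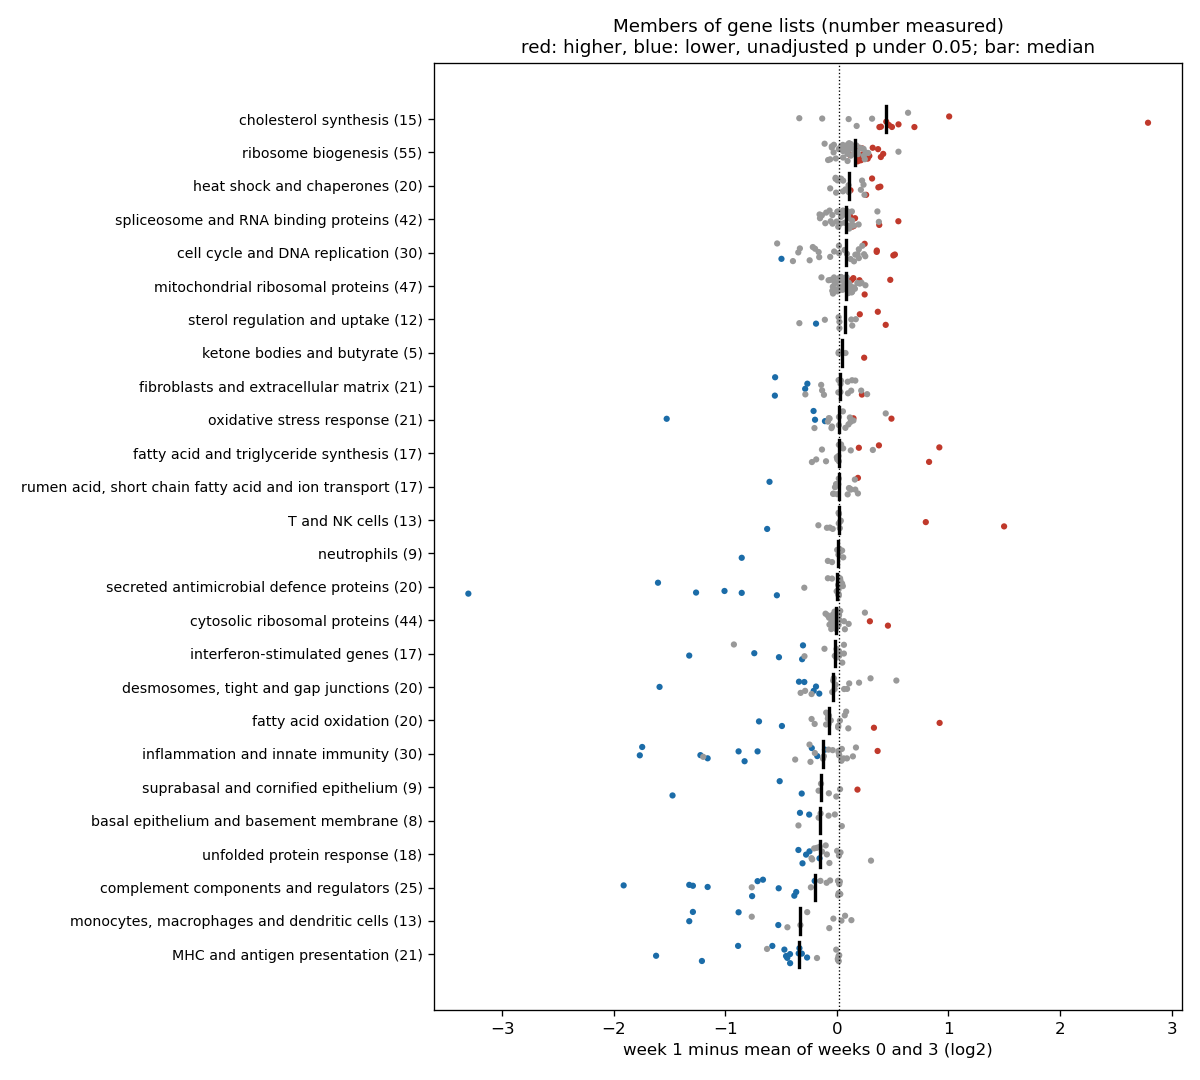
Difference of week 1 from the mean of weeks 0 and 3 (x axis, log2) for each measured member of 26 gene lists (y axis, number measured in brackets), red where higher and blue where lower at an unadjusted p under 0.05, with a bar at each list's median and a dotted line at the median of all named genes, 0.02. The bars run from -0.34 for MHC and antigen presentation to 0.44 for cholesterol synthesis.

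Cholesterol synthesis had the highest median of the lists described. Of 15 measured enzymes 13 were higher, 9 at an unadjusted p under 0.05, and their median was 0.44, with 0.48, 0.09, 0.68 and 0.54 in cows 1 to 4. HMGCS1, which makes HMG-CoA and opens the pathway, read 2.43, 0.18, 3.74 and 3.17 in week 1 against -1.32 through -0.76 to 1.46 elsewhere. Cows 1, 3 and 4 were high and cow 2 was not, and the difference was 2.79 ± 0.44, or 6.91-fold higher (limma adjusted p = 0.145). FDFT1, squalene synthase, read 0.44, -0.03, 1.11 and 0.81 against at most 0.22 elsewhere (1.01 ± 0.18, 2.01-fold, limma adjusted p = 0.172), with cow 2 again lowest. FDPS, which makes farnesyl diphosphate, differed by 0.70 ± 0.20 and SQLE, squalene epoxidase, by 0.44 ± 0.09.

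The sterol genes did not simply return to the forage value. The list's median from week 0 to week 3 was -0.45, and its week 1 median was 0.23 above week 0 and 0.65 above week 3. From week 0 to week 3 HMGCS1 differed by -1.43 ± 0.51 (95% interval -2.62 to -0.24) and FDFT1 by -0.94 ± 0.20 (-1.41 to -0.47). Week 1 was above both other weeks in every cow for 1 of the 15 enzymes, and in cow 2 FDFT1 went from 0.21 at week 0 to -0.03 at week 1 and -1.17 at week 3.

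INSIG1, an SREBP target that retains the SREBP complex in the reticulum, read 0.36, 0.36, 0.02 and 0.35 against -0.63 to 0.21, a difference of 0.44 ± 0.08 with a peak in every cow. MYLIP, which degrades the LDL receptor, differed by 0.21 ± 0.06. Of 12 measured genes of sterol regulation and uptake 9 were higher, 3 at an unadjusted p under 0.05, with a median of 0.08. At that level 1 was lower, NPC2, a carrier of cholesterol out of lysosomes, which dipped in all 4 cows (-0.19 ± 0.06). Without the week 1 array of cow 1, 2 of the 12 were higher and 3 lower at that level.

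Fatty acid synthesis showed a few large members and no shift of the list. Of 17 genes 12 were higher, 4 at an unadjusted p under 0.05 and none lower at that level, with a median of 0.02, equal to that of all genes. ELOVL6, which lengthens palmitate to stearate, read 0.61, 0.77, 0.67 and 0.40 against -0.96 to 0.18, without overlap (0.83 ± 0.14, limma adjusted p = 0.164). SCD, the desaturase that makes oleate, differed by 0.92 ± 0.27, with 0.27 in cow 2 and 0.81 to 1.61 in the others. From week 0 to week 3 SCD differed by -0.89 ± 0.31. ACSL1, which activates long chain fatty acids, differed by 0.92 ± 0.24 in week 1 and by -1.08 ± 0.28 from week 0 to week 3.

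Of 20 fatty acid oxidation genes, a list that holds ACSL1 and PDK4, 8 were higher and 12 lower, 2 each at an unadjusted p under 0.05. All 5 ketone body and butyrate genes measured were higher, with a median of 0.05, but 0 peaked in all 4 cows. Their medians were 0.11, 0.07, 0.01 and -0.08 in cows 1 to 4. ACAT1, which joins acetyl-CoA units (0.24 ± 0.10, with -0.08 in cow 4), reached an unadjusted p under 0.05. ACSS1, a mitochondrial acetate-activating enzyme, did not (0.08 ± 0.03).

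Among genes of host defence, antigen presentation had the lowest median of the lists described. Of 21 measured genes 16 were lower, 13 at an unadjusted p under 0.05 and none higher at that level, and 9 dipped in all 4 cows, while none was called. The median difference was -0.34 against 0.02 for all named genes, with -0.23, -0.39, -0.35 and -0.19 in cows 1 to 4. The 5 higher members differed by 0.01 to 0.02, like the median of all genes. The lists of antigen presentation, complement and secreted antimicrobial proteins were written after values of these genes had been seen, so their counts describe these arrays and are not independent evidence of a direction. All other lists were chosen with earlier results of these data known, so their counts are not independent evidence either.

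B2M, the light chain of MHC class I, read 0.43, -0.18, -0.35 and -0.73 in week 1 against -0.39 through 0.23 to 0.79, a difference of -0.42 ± 0.06 (limma adjusted p = 0.141), with -0.63 to -0.31 in the cows and all 3 probe sets lower. TAP1, a subunit of the peptide pump that loads class I, read 0.76, -1.06, -0.85 and -1.97 against -0.87 through 0.15 to 1.08 (-0.89 ± 0.16, limma adjusted p = 0.172). Cow 1 differed by -0.20 and the other cows by -1.28 to -0.88. PSMB8 (-1.21 ± 0.25) and PSMB9 (-0.42 ± 0.12), catalytic subunits of the immunoproteasome, were lower in every cow.

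The class I heavy chain gene BOLA-N differed by -1.62 ± 0.43 and the class II gene BOLA-DRA by -0.44 ± 0.10. The cattle MHC genes are near-identical copies that differ between animals, and probe sets can share signal among them, so values of single BOLA genes are uncertain. CTSS, cathepsin S, which trims the class II chaperone, differed by -0.47 ± 0.14.

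Of 25 measured complement genes 16 were lower, 11 at an unadjusted p under 0.05 and none higher at that level, and 7 dipped in all 4 cows. Their median was -0.20, with -0.16, -0.32, -0.08 and 0.07 in cows 1 to 4. Next to C2 and C1R, both among the 12 lower genes, stood CFB, which is the alternative pathway's counterpart of C2. It read -0.12, -1.33, -0.98 and -1.45 against -0.27 to 0.51 (-1.16 ± 0.19, limma adjusted p = 0.15), and only cow 1 overlapped the other weeks. C1S, the partner protease of C1R, differed by -0.76 ± 0.12 and C3, the central component, by -0.71 ± 0.30. The terminal and plasma components C5, C6, C8A and C9 differed by 0.01 to 0.02.

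Secreted antimicrobial proteins split evenly. Of 20 measured genes 10 were higher and 10 lower, and the median was 0.00, but the 6 members with an unadjusted p under 0.05 were all lower. LPO, lactoperoxidase, which makes the oxidant hypothiocyanite, read -0.76, -1.78, -5.02 and -3.90 in week 1 against -0.43 through 0.48 to 1.64 elsewhere. All 4 week 1 arrays lay below all 8 others, and the difference of -3.30 ± 0.61 (9.87-fold lower, limma adjusted p = 0.195) was the largest of any named gene. The β-defensins LAP, lingual antimicrobial peptide (-1.60 ± 0.25), TAP, tracheal antimicrobial peptide (-1.26 ± 0.33), and DEFB4A (-1.01 ± 0.16) were lower in every cow. They are members of a family of near-identical genes, and a second probe set of DEFB4A had the opposite sign. DEFB4A differed by -0.36 from week 0 and by -1.66 from week 3, and it had no dip. TAP had no dip either, since in cow 1 week 1 (-0.08) lay above week 0 (-0.15). TAP differed by -0.88 from week 0 and by -1.64 from week 3.

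LAP read 0.11, -1.29, -1.82 and -2.22 against -1.57 through 0.61 to 1.15. Week 1 was lowest in each cow, but the weeks overlapped. S100A9, a subunit of calprotectin, differed by -0.85 ± 0.21, of which cow 1 showed -0.11.

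Inflammatory genes were lower in week 1 mainly against week 3. Of 30 measured genes 19 were lower, 10 at an unadjusted p under 0.05 and 1 higher, and the median was -0.12. Week 1 differed from week 0 by a median of 0.02 and from week 3 by -0.31, and 2 members dipped in all 4 cows. LBP, which hands lipopolysaccharide to CD14, read -0.01, -1.79, -3.42 and -1.03 against -0.86 through 0.31 to 1.14 (-1.77 ± 0.43, limma adjusted p = 0.308).

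The chemokine CXCL8 differed by -1.74 ± 0.73 with -4.35 in cow 2, -2.89 in cow 3 and -0.08 and 0.34 in cows 1 and 4, so it was low in only a pair of the cows. Its week 3 value stood 1.95 ± 0.84 above week 0. CXCL5 in week 1 differed by 0.06 from week 0 and by -1.71 from week 3, and so had no dip. SAA3, an acute phase apolipoprotein of epithelia, differed by -1.22 ± 0.45, and at week 3 stood 1.44 ± 0.52 above week 0. ICAM1, an adhesion molecule for leukocytes, was the member higher at an unadjusted p under 0.05 (0.37 ± 0.13).

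Of 17 interferon-stimulated genes 11 were lower, 5 at an unadjusted p under 0.05, and 4 dipped in every cow, with a median of -0.02. IRF9, a subunit of the factor through which type I interferon acts, read 0.69, -0.64, -1.07 and -0.42 against -0.37 to 1.90 (-0.74 ± 0.19). DHX58, a sensor of viral RNA, differed by -0.52 ± 0.14 and the antiviral GTPase MX1 by -1.32 ± 0.41. These differences were spread unevenly, with -0.13 for MX1 in cow 4 and -2.11 in cows 1 and 2.

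Macrophage markers had lower values beside these defence genes. Of 13 measured markers of monocytes, macrophages and dendritic cells 10 were lower, 4 at an unadjusted p under 0.05, with a median of -0.33 and with -0.63, -0.50, -0.04 and 0.10 in cows 1 to 4. The mean over the list ran from -0.85 to 1.00 on week 0 arrays, from -0.61 to 0.24 on week 1 arrays and from -0.56 to 0.77 on week 3 arrays. CSF1R, the receptor of macrophage growth factor, differed by -0.52 ± 0.13 and C1QA, made by macrophages, by -1.32 ± 0.36. The C1Q genes stand in this list and in the complement list. CFB, described with complement, was counted among the inflammatory genes, and S100A9 among the neutrophil markers. The counts of the defence lists are therefore not all separate observations. The list's median was 0.00 when the 3 arrays of high hybridization controls were left out. CD53, a tetraspanin of leukocytes, differed by -1.34 ± 0.22, with -2.09 in cow 4.

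Markers of T and NK cells were divided, with a median of 0.02 over 13 genes. CD3G read -0.15, 2.03, 2.31 and 0.74 against -0.65 to 0.28 (1.50 ± 0.35, limma adjusted p = 0.294) and CD3D differed by 0.80 ± 0.24, whereas CD3E, of the same receptor complex, differed by -0.62 ± 0.26. Of 9 neutrophil markers S100A9 alone had an unadjusted p under 0.05, and the median was 0.01, with MPO, their granule peroxidase, at 0.06 ± 0.03. Since values are centred, whether any marker was absent from the tissue could not be read. The part of leukocytes in the differences of the defence genes was not tested.

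**Figure D3:**
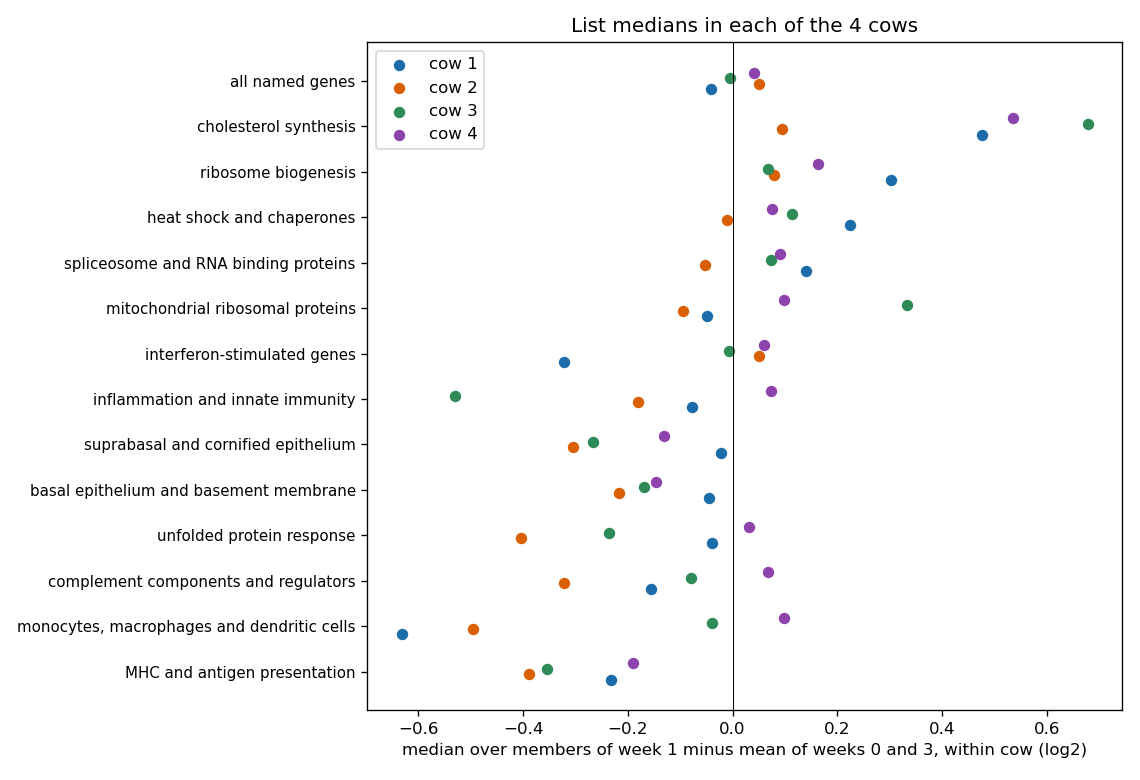
Median over the members of 13 gene lists and over all named genes (y axis) of the within-cow difference of week 1 from weeks 0 and 3 (x axis, log2), 1 point per cow. Cholesterol synthesis and ribosome biogenesis lie above 0 in all 4 cows, MHC and antigen presentation below 0 in all 4, and complement, inflammation and macrophage markers lie below 0 in cows 1 to 3 and above it in cow 4.

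Genes of the epithelial barrier were mostly lower in week 1. Of 9 suprabasal and cornified layer markers 7 were lower, with DMKN and TGM3, the transglutaminase that cross-links the cornified envelope (-0.51 ± 0.13), among the 3 at an unadjusted p under 0.05. KRT10, a suprabasal keratin, was higher (0.18 ± 0.07). In week 1 the suprabasal list differed by a median of -0.04 from week 0 and of -0.14 from week 3. TGM3 read 0.02, -0.74, -0.67 and -0.72 against -0.49 to 0.17, so cows 2 to 4 were low and cow 1 was not. Of 8 basal layer markers 7 were lower, with a median of -0.15, and KRT15 (-0.33 ± 0.09) and KRT5 (-0.25 ± 0.08) had an unadjusted p under 0.05. In week 1 the basal list differed from week 0 by a median of -0.30 and from week 3 by only -0.0052, and week 3 differed from week 0 by -0.23, so the list was about as low at week 3 as in week 1.

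Of 20 junction genes 14 were lower, 6 at an unadjusted p under 0.05, with a median of -0.04. Cow 1 had a junction median above 0 (0.06), against -0.11, -0.14 and -0.12 in cows 2 to 4. GJB6, connexin 30, read -0.19, -1.04, -2.52 and -0.13 against -0.42 through 0.58 to 1.90 and dipped in every cow (-1.59 ± 0.37, limma adjusted p = 0.294). CGN, cingulin of the tight junction, differed by -0.34 ± 0.09, with 0.01 in cow 1 and -0.59 to -0.36 in the others. DSG1, desmoglein 1, was not a gene of the first week. It read -0.00, -0.35, 0.12 and 1.85 in week 1 against -2.52 through -0.14 to 2.20, a difference of 0.53 ± 0.30, while from week 0 to week 3 it differed by -2.37 ± 0.35. Its second probe set had the opposite sign.

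The transporters most tied to fermentation acids had small differences. SLC16A1, the monocarboxylate transporter MCT1, read 0.13, 0.26, 0.12 and -0.05 in week 1 against -0.19 to 0.24 and differed by 0.13 ± 0.09 (95% interval -0.09 to 0.34). SLC9A3, the sodium-proton exchanger NHE3, differed by -0.02 ± 0.09 (95% interval -0.23 to 0.20) and stood 0.36 ± 0.11 above week 0 at week 3. Of 17 measured transport genes 12 were higher, against 5577 of 9155 for all named genes. The list's median was 0.02, equal to that of all named genes. SLC4A7, a sodium-bicarbonate cotransporter (0.19 ± 0.05), and SLC5A1, the glucose transporter SGLT1 (-0.60 ± 0.19), had an unadjusted p under 0.05. SLC4A7 in week 1 differed by -0.05 from week 0 and by 0.42 from week 3, so it had no peak.

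Of the insulin-like growth factor binding proteins, IGFBP3 read -0.63, -1.45, -1.47 and -0.19 against -1.08 through 0.39 to 1.12, a difference of -1.22 ± 0.33 (limma adjusted p = 0.339). Against week 0 it differed by -1.81 in week 1 and by -1.18 ± 0.38 at week 3, and in cow 4 the week 1 difference was -0.10. IGFBP5 differed by 0.47 ± 0.19, and against week 0 by 1.00 in week 1 and by 1.06 ± 0.22 at week 3. Neither followed a peak or dip with return.

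How far the genes came back was read from the difference of week 3 from week 0, whose estimate in this balanced design does not use the week 1 arrays. No probe set was called for it by limma (0 of 24016, 0%), with 1469 at an unadjusted p under 0.05 (6.12%). Of the 24 genes of smallest p in the transient comparison 17 had a 95% interval of that difference that held 0, which does not show that they were equal. The other 7 were HMGCS1, RRP36 and PNO1 among the higher genes and DMKN, C1R, ADPRS and ARHGAP10 among the lower ones. Week 3 was the lower of the 2 for RRP36 (-0.20 ± 0.03), PNO1 (-0.17 ± 0.07), HMGCS1, DMKN (-0.63 ± 0.19), ADPRS (-0.20 ± 0.05) and ARHGAP10 (-0.72 ± 0.09), and the higher for C1R (0.42 ± 0.09). Of the 440 higher genes at an unadjusted p under 0.05, 70 also differed at that level between weeks 3 and 0, and of the 581 lower genes 116 did. These shares, like the 7 of 24, exceed the 6.12% over all probe sets, so many of these genes did not simply return. Both comparisons use the same estimate of a gene's spread, so a gene of small estimated spread can pass in both.

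**Figure D4:**
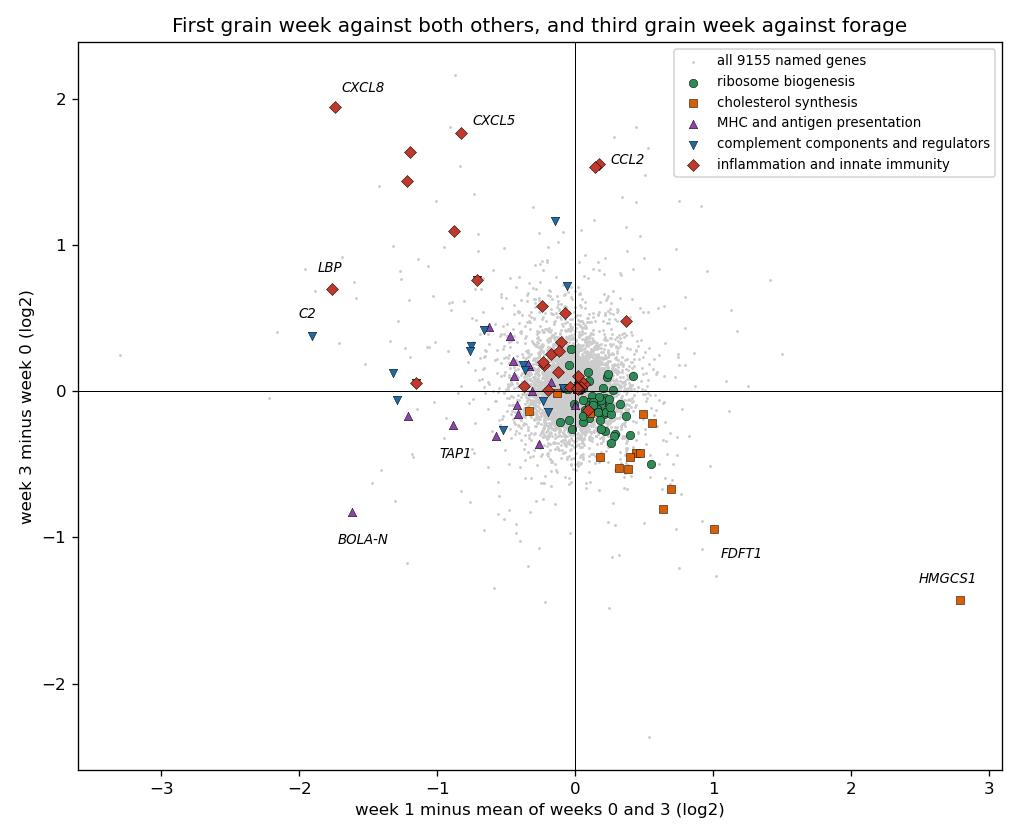
Difference of week 3 from week 0 (y axis, log2) against the difference of week 1 from the mean of both (x axis, log2), 1 grey point for each of 9155 named genes and coloured symbols for 5 gene lists. Genes near the horizontal line had like values at weeks 0 and 3, cholesterol synthesis genes lie to the right and below it (list medians 0.44 and -0.45), and inflammatory genes to the left and above it (-0.12 and 0.23).

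Without the week 1 array of cow 1, with the other 11 arrays kept, the limma fit called 89 probe sets (0.371%), 20 higher and 69 lower, naming 59 genes, and all 4 calls of the full comparison were among them. They included C2 (-2.18, adjusted p = 0.0156), CFB (-1.43, adjusted p = 0.0135), TAP1 (-1.11, adjusted p = 0.0135), DMKN (-1.57, adjusted p = 0.0478), LAP (-1.86, adjusted p = 0.0478), C1R (-0.72, adjusted p = 0.0478) and FUT6 (-0.48, adjusted p = 0.0256), and on the higher side RIOX2 (0.46, adjusted p = 0.0435) and HSPB8 (0.50, adjusted p = 0.0372). The same within-cow differences fitted without any array of cow 1 gave 0 calls. The remaining pair of cow 1 adds to the estimate of the spread and not to the differences. For the lists, 14 of 21 antigen presentation genes were then lower at an unadjusted p under 0.05 against 10.2% of all named genes, 14 of 30 inflammatory genes, 9 of 25 complement genes and 6 of 9 suprabasal markers. The median moved from -0.20 to -0.13 for complement, from -0.12 to -0.25 for inflammation, from -0.33 to -0.14 for macrophage markers, from -0.14 to -0.24 for suprabasal markers, from -0.04 to -0.14 for junctions and from -0.02 to 0.04 for interferon-stimulated genes. On the higher side 10 of 55 ribosome biogenesis genes and 7 of 15 cholesterol synthesis enzymes reached that level against 10.9% of all named genes. Leaving out the week 1 array of cow 2, cow 3 or cow 4 instead gave 4, 0 and 0 calls. With all arrays, the week 1 differences of C2 (-1.10), CFB (-0.33) and TAP1 (-0.20) in cow 1 were the smallest of the 4 cows.

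Leaving out the 40% of probe sets with the lowest SD over the 12 arrays, which favours genes that differ between weeks and is therefore not independent of the comparison, gave 33 calls of 14409 (0.229%), 7 higher and 26 lower, of which 15 were among the 89. They named 21 genes, among them HMGCS1, FDFT1 and ELOVL6 on the higher side and C2, C1R, C1S, CFB, LPO, LAP, DEFB4A, TAP1, PDK4 and ELF5 on the lower side. SMPDL3B, a phosphodiesterase relative of acid sphingomyelinase, was among them too and read -1.03, -0.06, -3.56 and -0.00 in week 1 against -1.46 through 0.49 to 2.14 (-1.69 ± 0.28).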

How the data were processed

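The authors deposited 1 table of log2 values for 24128 probe sets on 12 arrays, made with GCRMA per the submitters' processing notes without a version. Base 2 was inferred: the most variable probe set spans 11.2 units, and read as natural logarithms this is a 74399-fold range, more than the 65535 steps a scanner records. All 112 AFFX controls were left out and 24016 probe sets tested. The array's annotation named 1 gene for 13292 probe sets, several for 86 and none for 10638; 13263 were matched by gene ID to the ARS-UCD2.0 gene table for symbols. A gene is represented by its probe set of largest SD over the 12 arrays. No coordinates or sequences are given.

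With limma 3.58.1 in R 4.3.3, week and cow were fitted over all 12 arrays (6 residual degrees of freedom), and week 1 minus the mean of weeks 0 and 3, and week 3 minus week 0, were tested two-sided with moderated variances, adjusted by Benjamini-Hochberg over all probe sets. SE and 95% intervals come from this fit, and the fit was tested on simulated data. The pairing comes from the cow numbers in the labels: deviations from weekly means had correlations of 0.303 to 0.690 for arrays of 1 cow, and of -0.591 to 0.0662 for arrays of different cows. The number of arrays limits the precision. The members, 38 gene lists and tests were chosen with earlier results of these data known, and 3 lists (antigen presentation, complement, antimicrobial proteins) after their values were seen. Named genes are the 12 of smallest p in each direction (used where under 5 genes are called) that moved one way in all 4 cows, the 2 of smallest p in each list described, and HMGCS1, SLC16A1, SLC9A3, IGFBP3, IGFBP5, DSG1 and DMKN. All other genes were named after their values were seen. Lists were described by counts and medians, with no test. Alternatives changed the cow term, the normalization, weights, the filter, the baseline, the probe set rule and the arrays included.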

Additional observations from a re-analysis of the deposited data

Results flagged for a closer look

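Among the 4 within-cow differences of each of 73 named genes, 3 genes had a cow far from the other 3, by Dixon's criterion at the 95% level, which chance meets in about 1 of 20 groups. HMGCS1 differed by 0.93 in cow 2 against 3.35 to 3.45 in the others. INSIG1, its fellow SREBP target, was by contrast farthest up in cow 2, at 0.67 against 0.35 to 0.37. THBS1, thrombospondin 1, differed by -1.18 in cow 4 against -0.40 to -0.28, and 3 of its 6 probe sets had the opposite sign.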

How the results depend on the processing

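The count of calls for week 1 against both other weeks, 4 in the full comparison, was 0 without the cow as a block (no replicate block), 0 from the 4 within-cow differences alone, 0 after quantile normalization, 2 with each array centred on its median, 5358 with array weights, 33 without the 40% of lowest SD (fewer probe sets tested), 1 without the 3 arrays of high hybridization controls, 2 with week 0 alone as baseline and 0 with week 3 alone, and it ranged from 0 to 89 when a cow or a single array was left out. The array weights ran from 0.00559 to 101 and their estimation did not converge, so these counts are given for completeness. Probe sets at an unadjusted p under 0.05, 1929 in the full comparison, numbered 1277 without the block, 11304 with array weights, 3113 without the 3 arrays, and 1432 to 5274 with a cow or an array left out, highest without the week 1 array of cow 1 (5274) and without cow 1 (3677). For week 3 against week 0 there were 4 calls after quantile normalization, 305 with array weights and 18 without the 40% of lowest SD, against 0. Probe sets with a peak in every cow, 375 with all cows, numbered 693 to 1541 with a cow left out, and those with a dip, 354 with all cows, 581 to 1306, as fewer cows have to share the pattern. Apart from the fewer probe sets, arrays or cows, the cause of these changes was not tested.

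Of 1928 values of 73 named genes under the alternatives 10 changed sign, in 4 genes none of which was called. SLC9A3 was 0.021 with array weights, 0.030 without the 3 arrays and 0.16 with week 0 alone as baseline. It ranged from -0.078 (without the week 0 array of cow 4) to 0.035 (without the week 3 array of cow 4) with a cow or an array left out, and was 0.027 without cow 2 or without its week 0 or week 1 array. IGFBP5 was -0.062 with week 3 alone, and DSG1 was -0.65 and SLC4A7 -0.047 with week 0 alone. The list medians of cholesterol synthesis, ribosome biogenesis, spliceosome, chaperones, unfolded protein response, antigen presentation, complement, basal and suprabasal markers and junctions kept their sign under all 27 alternatives. So did those of sterol regulation, fatty acid oxidation and ketone bodies. The median changed sign under 9 for antimicrobial proteins, 7 each for cytosolic ribosomal proteins and oxidative stress, 5 each for T and NK cells and neutrophils, 4 for interferon-stimulated genes, 3 each for fatty acid synthesis and fibroblasts, 2 for mitochondrial ribosomal proteins and 1 each for inflammation, macrophages, cell cycle and transport. With week 3 alone as baseline the cholesterol synthesis median was 0.65, and with week 0 alone 0.23.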

Other observations

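Of 30 measured cell cycle and DNA replication genes 18 were higher, 5 at an unadjusted p under 0.05, and 12 lower, 1 at that level. By sign this is close to all named genes, of which 5577 of 9155 were higher. CCND1, cyclin D1 of the G1 phase, read -0.01, 0.30, 0.34 and 0.40 in week 1 against -0.42 to 0.26 (0.36 ± 0.06, limma adjusted p = 0.174) and peaked in every cow. MCM6, of the helicase that opens DNA for replication, differed by 0.52 ± 0.15 with 0.02 in cow 2. CCNB1, cyclin B1 of mitosis, differed by -0.50 ± 0.20. None was called, and CCNB1 was chosen after its values were seen.

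Of 21 fibroblast and matrix markers 13 were higher and 8 lower with a median of 0.03, while the median from week 0 to week 3 was 0.20. The split by sign was likewise close to that of all named genes. COL1A1 differed by 0.22 ± 0.15 in week 1, and stood 0.91 above week 0 at week 3. DCN, decorin, dipped in every cow (-0.55 ± 0.09, limma adjusted p = 0.141).

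Some further genes of other groups were chosen after their values were seen. PSME2, a subunit of the interferon-induced proteasome activator, differed by -0.41 ± 0.14, and WARS1, the interferon-induced tryptophanyl-tRNA synthetase, by -0.48 ± 0.14, both lower in all 4 cows. ADM, adrenomedullin, a vasodilator peptide, differed by 0.50 ± 0.13. GCLC, the first enzyme of glutathione synthesis and a gene named by the rule, differed by 0.49 ± 0.16, with -0.07 in cow 3.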
